A study of Mus musculus with 8 samples.

Results

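The 10 genes described here are the 4 Id genes (Id1, Id2, Id3 and Id4), the ligand gene Bmp4, the receptor genes Bmpr1a and Eng, and the feedback genes Smad6, Smad7 and Bambi. They were chosen by name, as Id proteins and parts of the bone morphogenetic protein (BMP) pathway, from the 18350 genes that had a probe on the array. The 10 genes had 15 probes, and 9 of them were bright enough to be tested, among 13331 tested genes. Smad6 was not.

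Total RNA was hybridised to 8 Agilent one-colour arrays, from secondary neurospheres, the floating clusters that hippocampal neural stem and progenitor cells form when primary spheres are dissociated and replated. There were 4 groups of 2 arrays each: Sirt1 KO and WT spheres of strain 129/ICR, harvested after 6 days in culture, and C57BL/6 WT spheres given resveratrol or its solvent DMSO for 24 hours after 5 days in culture. All mice were 7 to 9 weeks old. In the Sirt1 KO and WT groups replicate 1 was female and replicate 2 male, while the resveratrol and DMSO arrays were all from males. The labels do not name the Sirt1 allele or say which cells it was deleted in. They write the resveratrol dose as 10 with the unit "mm". The spheres of all groups grew in serum-free medium with bFGF and EGF, and no BMP ligand is among its listed components. Since the sexes differ, the 2 arrays of the Sirt1 KO group came from different mice, as did those of the WT group. For the resveratrol and DMSO groups the labels do not say whether the arrays came from separate cultures. The p-values reflect the scatter of these samples alone, which in those 2 groups may be technical.

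BMP ligands bring receptor kinases such as Bmpr1a together, and the activated receptors phosphorylate SMAD proteins that enter the nucleus and switch on target genes. The Id genes are classic targets: Id proteins carry a helix-loop-helix domain but no DNA-binding region, so they capture E proteins and hold back the proneural factors that need them. Smad6, Smad7 and Bambi are induced by the same pathway and dampen it. In the adult hippocampus BMP signalling is known for keeping neural stem cells quiescent.

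The 75th percentile of the signal was 249 to 871 across the arrays, and 53.0% to 72.0% of probes were well above background, with 0 saturated spots. Neural stem cell markers were present: 9 of 10 (including Sox2 and Nes) were well above background on all 8 arrays. Microglial markers were nearly absent, 6 of 7 being well above background on no array. The brighter Sirt1 probe read 0.42 and -0.07 in Sirt1 KO spheres, against 0.16 and 0.17 in WT spheres. Whether that probe lies in the deleted stretch is not stated, so it does not check the genotype. These and all later levels are log2 signals minus the array's 75th percentile, given per array with replicate 1 before replicate 2, and a difference of 1 is a 2-fold difference. Levels of different probes cannot be set against each other.

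Id4 and Id3 read higher in Sirt1 KO than in WT spheres and lower with resveratrol than with DMSO, and Eng, a co-receptor, read lower in Sirt1 KO spheres and higher with resveratrol. Id1 was higher in both comparisons, Id2 was close to level, and Bmp4 was higher in Sirt1 KO spheres with a wide spread. No gene of the 10 passed the test after adjustment in either comparison (limma, adjusted p = 1 for each of the 9 tested). The same was true of every tested gene, since limma called 0 of 13331 genes (0%) in each, with 158 genes (1.19%) at an unadjusted p under 0.05 for Sirt1 KO against WT and 203 (1.52%) for resveratrol against DMSO. For Sirt1 KO against WT the count was 5 without Sirt1 KO replicate 1 and 3 without Sirt1 KO replicate 2, with none of the 10 genes among them. With replicate number as a block limma called 57 genes (0.428%) for Sirt1 KO against WT, Id1 among them, and 73 (0.548%) for resveratrol against DMSO. The labels do not say that this number pairs samples. The values that follow are therefore a description of these arrays.

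**Figure D1:**
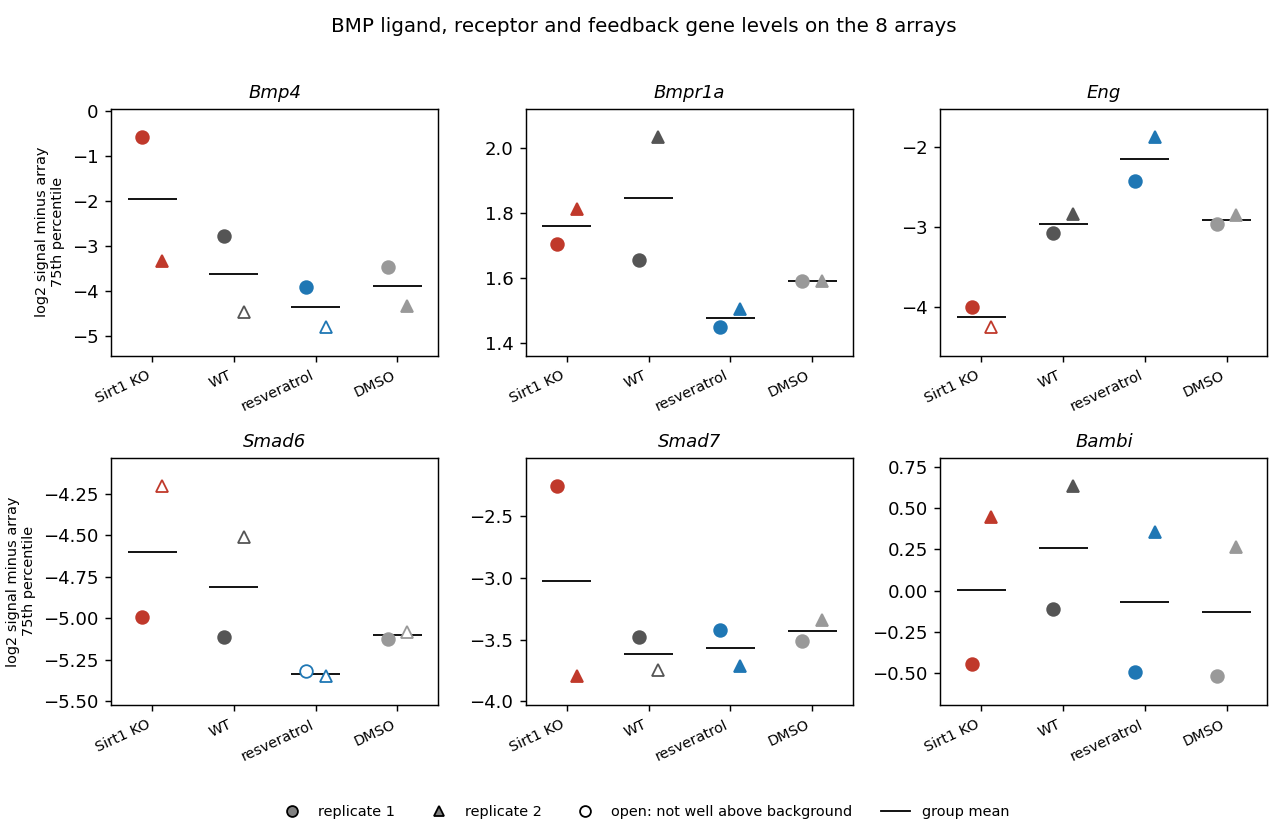
Levels of the ligand, receptor and feedback genes on each array, as log2 signal minus the array's 75th percentile, with Sirt1 KO, WT, resveratrol and DMSO from left to right in each panel. Circles are replicate 1, triangles replicate 2, open symbols arrays on which the probe was not well above background, and bars group means. Both Eng values lie lowest in Sirt1 KO and highest with resveratrol, and Bmp4 on Sirt1 KO replicate 1 stands at -0.58, above all other arrays.

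Bmp4 encodes a secreted BMP ligand. Its level was -0.58 and -3.33 in Sirt1 KO spheres, against -2.78 and -4.48 in WT spheres. Sirt1 KO replicate 1 stood above every other array, while Sirt1 KO replicate 2 lay between the WT arrays, so the groups overlapped. The mean difference was 1.67 (SE 0.99, limma, unadjusted p = 0.137, n = 2 per group), with 2.20 between the replicate 1 arrays and 1.15 between the replicate 2 arrays. The second value is less certain, since Bmp4 was not well above background on WT replicate 2. One array decided its size: leaving out arrays in turn gave differences from 0.30 to 3.05, the lowest without Sirt1 KO replicate 1. Normexp background correction, an alternative chosen after seeing the data, gave 0.80. The probe was printed as 10 spots, whose SD within an array was between 0.06 and 0.55, smaller than the gap between replicates of each group.

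In resveratrol spheres Bmp4 read -3.93 and -4.81, against -3.47 and -4.34 in DMSO spheres. The difference was -0.46 between the replicate 1 arrays and -0.47 between the replicate 2 arrays. Replicate 2 lay below replicate 1 in all 4 groups for Bmp4, as it did for 21.4% of genes, and the resveratrol and DMSO groups overlapped. Bmp4 was not well above background on resveratrol replicate 2 either. Normexp gave -0.14, and leaving out arrays gave -0.91 to -0.02.

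The letters upstream of Bmp4, Id3, Id4 and Eng are shown because these 4 genes differed in opposite directions in the 2 comparisons. Bambi also did so, by less. The sequences are from RefSeq on GRCm38.p6 and were read for 7 of the 10 genes. None was read for Id1, Smad7 or Bambi. Capitals mark the GC-rich SMAD motif GGCGCC and the E-box CANNTG, the motif that E proteins bind. Each motif reads the same on both strands, and their matches do not overlap. Of 32851 upstream windows of 250 bases, 9.59% hold GGCGCC and 66.2% hold CANNTG. The Bmp4 window, chr14:46390670-46390919 on the minus strand, holds 3 E-box matches.
Bmp4: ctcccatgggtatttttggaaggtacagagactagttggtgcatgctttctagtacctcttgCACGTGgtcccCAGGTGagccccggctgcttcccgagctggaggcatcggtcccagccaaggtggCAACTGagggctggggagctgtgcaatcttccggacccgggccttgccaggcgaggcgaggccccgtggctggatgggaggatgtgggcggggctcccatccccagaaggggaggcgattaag

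Bmpr1a, the type I receptor kinase through which BMP ligands signal in neural stem cells, was nearly level across the study. It read 1.71 and 1.81 in Sirt1 KO spheres, against 1.66 and 2.04 in WT spheres, a mean difference of -0.09 (SE 0.22, limma, unadjusted p = 0.703). In resveratrol spheres it read 1.45 and 1.50, against 1.59 and 1.59 in DMSO spheres. The resveratrol values lay below both DMSO values by a small margin, with a mean difference of -0.11 (SE 0.22, limma, unadjusted p = 0.617). A second, dimmer Bmpr1a probe read higher in both comparisons, by 0.29 and 0.20 for Sirt1 KO over WT and by 0.12 and 0.80 for resveratrol over DMSO. The mean differences of the 2 probes thus had opposite signs, and averaging both probes gave 0.08 and 0.17.

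Eng encodes endoglin, a co-receptor for TGF-beta and some BMP ligands that is best known from endothelial cells. Its level was -3.99 and -4.25 in Sirt1 KO spheres, against -3.08 and -2.84 in WT spheres. Both Sirt1 KO values lay below both WT values, but the probe was well above background on only 1 of the 2 Sirt1 KO arrays, replicate 1. The mean difference was -1.16 (SE 0.34, limma, unadjusted p = 0.0117), with -0.91 and -1.40 in the replicate pairs, the second of which rests on the unmeasured array. Normexp gave a smaller difference, -0.39.

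In resveratrol spheres Eng read -2.43 and -1.88, against -2.96 and -2.85 in DMSO spheres. Both resveratrol values were higher, by 0.54 and 0.97 in the replicate pairs, which are also pairs on the same slide. The mean difference was 0.75 (SE 0.34, limma, unadjusted p = 0.0629), a 1.69-fold higher level, and 0.37 under normexp. Leaving out arrays gave 0.48 to 1.03. The 2 control groups, WT and DMSO, differed by -0.05 (SE 0.34), so resveratrol and Sirt1 KO spheres lay on opposite sides of controls that overlapped.

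Endothelial markers were partly missing from the neurospheres. Of 12 markers 6, among them the defining genes Pecam1, Cdh5, Tek and Cldn5, were well above background on no array, and 3 (Flt1, Vwf and Egfl7) on all 8. The level summed over the list, relative to the 75th percentile and on the linear scale, was 1.18 to 1.58 in Sirt1 KO spheres, against 0.640 to 0.915 in WT spheres. It was 1.22 to 1.49 in resveratrol spheres, against 0.940 to 1.34 in DMSO spheres. Within the list, the difference between Sirt1 KO and WT was largest for Flt1, with 2.49 and 1.63 in the pairs on the log2 scale. The part of these markers in the Eng differences was not tested. In these bulk samples fewer cells of a type and less RNA per cell cannot be told apart, for Eng or any other gene. The Eng window, chr2:32646345-32646594 on the plus strand, holds 1 E-box match and no GGCGCC.
Eng: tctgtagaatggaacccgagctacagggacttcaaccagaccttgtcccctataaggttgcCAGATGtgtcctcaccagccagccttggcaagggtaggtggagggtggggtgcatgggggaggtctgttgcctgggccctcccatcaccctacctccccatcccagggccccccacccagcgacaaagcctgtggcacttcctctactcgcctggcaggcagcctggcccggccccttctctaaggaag

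Of the inhibitory SMADs, Smad7 was well above background on 7 arrays (all but WT replicate 2) and Smad6 on 3. Smad7, which blocks BMP and TGF-beta receptors, read -2.26 and -3.80 in Sirt1 KO spheres, against -3.48 and -3.75 in WT spheres. Only Sirt1 KO replicate 1 stood apart, and the pair differences were 1.22 and -0.05, around a mean of 0.59 (SE 0.53, limma, unadjusted p = 0.310). Without that array the difference was -0.18. In resveratrol spheres Smad7 read -3.42 and -3.72, against -3.51 and -3.34 in DMSO spheres, with the pair differences again of opposite sign (0.09 and -0.37).

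Sirt1 KO replicate 1 was the highest array for Smad7 as it was for Bmp4, and the 2 genes correlated at r = 0.84 over the 8 arrays, a description over arrays that share 4 groups. Smad6, the SMAD inhibitor more specific to BMP receptors, was well above background on Sirt1 KO 1, WT 1 and DMSO 1. It read -4.99 and -4.20 in Sirt1 KO spheres, against -5.11 and -4.51 in WT spheres. It was -5.32 and -5.35 in resveratrol spheres, on neither array well above background, against -5.12 and -5.08 in DMSO spheres. Smad6 was not tested, since in no group was it well above background on both arrays.

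Bambi, a decoy receptor without a kinase domain, was well above background on all 8 arrays, with an SD over its 10 spots of 0.06 to 0.09. It read -0.45 and 0.45 in Sirt1 KO spheres, against -0.11 and 0.63 in WT spheres. Both pairs were lower in Sirt1 KO, by -0.33 and -0.18, but the gap between replicates within each group was wider, and the mean difference was -0.26 (SE 0.48, limma, unadjusted p = 0.612). In resveratrol spheres it read -0.49 and 0.35, against -0.52 and 0.26 in DMSO spheres, a difference of 0.06 (SE 0.48). Replicate 2 lay above replicate 1 in all 4 groups for Bambi and for Id1, as for 44.3% of genes. A second Bambi probe was well above background on no array.

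**Figure D2:**
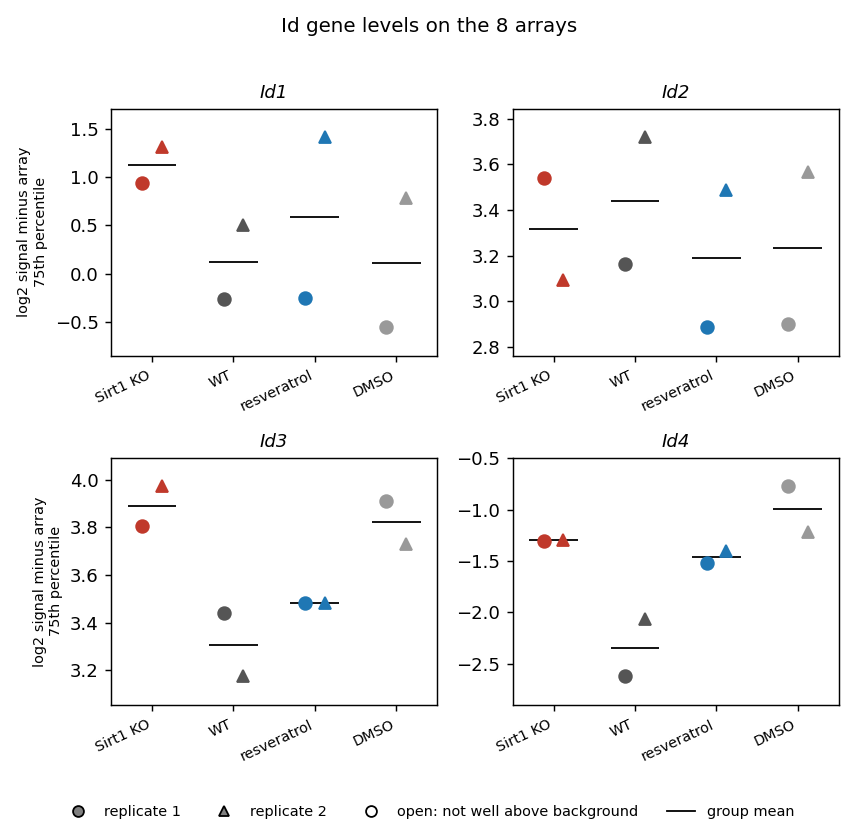
Levels of the 4 Id genes on each array, as log2 signal minus the array's 75th percentile, in Sirt1 KO, WT, resveratrol and DMSO spheres from left to right. Circles are replicate 1, triangles replicate 2 and bars group means. Id4 is lowest on both WT arrays, Id3 is higher in Sirt1 KO than in WT and lower with resveratrol than with DMSO on each array, and replicate 2 of Id1 lies above replicate 1 in every group.

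Among the Id genes, which encode the inhibitors of E proteins, Id4 and Id1 had the largest mean differences between Sirt1 KO and WT. Id4 read -1.30 and -1.29 in Sirt1 KO spheres, against -2.62 and -2.07 in WT spheres. The Sirt1 KO arrays were nearly identical and both lay above both WT arrays. The mean difference was 1.05 (SE 0.30, limma, unadjusted p = 0.0102), a 2.06-fold higher level, with 1.32 and 0.77 in the pairs. It ranked 201 from the top among 13331 genes, and normexp gave 0.57. A second Id4 probe gave 1.08 and 0.77.

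In resveratrol spheres Id4 read -1.52 and -1.40, against -0.77 and -1.22 in DMSO spheres. Both resveratrol values were lower, by -0.75 and -0.18 in the pairs, around a mean of -0.46 (SE 0.30, limma, unadjusted p = 0.164). The second probe gave -0.69 and -0.13. Leaving out arrays moved the mean difference between -0.69 and -0.24. Ordered by mean, Id4 was highest in DMSO, then Sirt1 KO, resveratrol and WT spheres. On the brighter probe no neighbouring groups in that order overlapped. Sirt1 KO and resveratrol spheres thus lay by mean between their controls, which themselves stood farthest apart. The second probe gave the same order of means. Its DMSO values (-1.21 and -2.04) overlapped those of Sirt1 KO (-1.84 and -1.86) and of resveratrol spheres (-1.89 and -2.17).

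Id3 gave the same order of signs with smaller differences. It read 3.81 and 3.97 in Sirt1 KO spheres, against 3.44 and 3.17 in WT spheres. The groups did not overlap, and the mean difference was 0.58 (SE 0.25, limma, unadjusted p = 0.0519), a 1.50-fold higher level, with 0.37 and 0.80 in the pairs. It kept its sign under every alternative tried, between 0.45 and 0.71. In resveratrol spheres Id3 read 3.48 on both arrays, against 3.91 and 3.73 in DMSO spheres. Both resveratrol values were lower, by -0.43 and -0.25, with a mean of -0.34 (SE 0.25, limma, unadjusted p = 0.215). Id3 and Id4 correlated at r = 0.73 over the 8 arrays, which share the 4 groups.

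The Id4 window, chr13:48260866-48261115 on the plus strand, is 75.6% G and C and holds 1 GGCGCC. The Id3 window, chr4:136143572-136143821 on the plus strand, is 62.8% G and C and holds neither motif. Of the other genes whose window was read, Id2 and Bmpr1a also hold 1 GGCGCC each, and Smad6 holds neither motif. A match describes these letters only.
Id4: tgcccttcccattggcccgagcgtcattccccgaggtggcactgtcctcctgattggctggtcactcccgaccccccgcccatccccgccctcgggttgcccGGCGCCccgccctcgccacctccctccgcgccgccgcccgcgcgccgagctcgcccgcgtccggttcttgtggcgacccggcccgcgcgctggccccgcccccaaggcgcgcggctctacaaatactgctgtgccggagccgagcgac
Id3: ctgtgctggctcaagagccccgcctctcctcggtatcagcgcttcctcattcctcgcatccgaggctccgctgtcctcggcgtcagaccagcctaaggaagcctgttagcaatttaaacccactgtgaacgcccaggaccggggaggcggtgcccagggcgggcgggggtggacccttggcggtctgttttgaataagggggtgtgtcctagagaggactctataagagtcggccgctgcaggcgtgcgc

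Id1 had the widest gap between replicates of the 4 Id genes in every group but Sirt1 KO. It read 0.94 and 1.32 in Sirt1 KO spheres, against -0.26 and 0.51 in WT spheres. Both Sirt1 KO arrays lay above both WT arrays, and the mean difference was 1.01 (SE 0.65, limma, unadjusted p = 0.169), a 2.01-fold higher level, with 1.20 and 0.81 in the pairs. A second probe gave 1.25 and 0.49, but on it the groups overlapped (Sirt1 KO 0.75 and 1.39, WT -0.50 and 0.90). The replicate 1 arrays of Sirt1 KO and WT lay on different slides and the replicate 2 arrays on the same slide. With slide as a block the difference was 0.37 (SE 0.29), and leaving out arrays gave 0.62 to 1.39. With replicate number as a block it was 1.01 (SE 0.15, limma, adjusted p = 0.0446). The labels do not say that this number pairs samples.

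In resveratrol spheres Id1 read -0.25 and 1.42, against -0.56 and 0.79 in DMSO spheres. The gap between replicates, 1.67 in resveratrol and 1.34 in DMSO spheres, was wider than the pair differences of 0.31 and 0.63. The mean difference was 0.47 (SE 0.65, limma, unadjusted p = 0.497), and without single arrays it ran from -0.37 to 1.30. Id1 was the only Id gene that read higher in both pairs of both comparisons.

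Id2 did not separate any groups. It read 3.54 and 3.09 in Sirt1 KO spheres, against 3.16 and 3.72 in WT spheres, with pair differences of opposite sign (0.38 and -0.63). In resveratrol spheres it read 2.89 and 3.49, against 2.90 and 3.57 in DMSO spheres, a difference of -0.05 (SE 0.38). Its second probe also gave opposite signs in the Sirt1 KO and WT pairs, 0.58 and -0.59. In the resveratrol and DMSO pairs that probe gave -0.09 and 0.12.

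**Figure D3:**
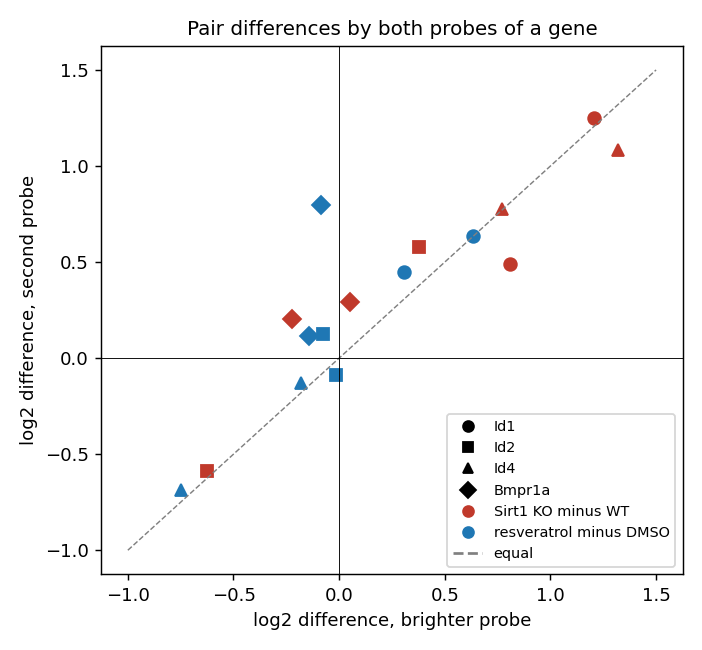
Pair differences of the 4 genes with 2 probes well above background, the brighter probe on the x axis and the second probe on the y axis, both as log2 differences. Red marks Sirt1 KO minus WT and blue resveratrol minus DMSO, and each gene and comparison has 2 points, one per replicate pair. Id1 and Id4 have the same sign on both probes at every point, though Id1 has 0.81 against 0.49 in one pair. All Bmpr1a points lie above the dashed line of equal values, with 0.80 against -0.09 in one pair.

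Astrocyte markers had a higher summed level in Sirt1 KO than in WT spheres, as did Id1, Id3 and Id4. The level summed over 8 markers (including Apoe, Aldoc and Gfap), of which 6 were well above background on all arrays, was 147 to 252 in Sirt1 KO spheres, against 83.8 to 139 in WT spheres. It was 200 to 204 in resveratrol spheres, against 175 to 204 in DMSO spheres. Bright probes dominate a sum on the linear scale, so Gfap, a dim probe, adds little to it. Taken singly, 6 of the 8 markers read higher in both Sirt1 KO pairs, against 23.5% of all genes. The other 2, S100b and Slc1a2, were mixed. In both resveratrol pairs 4 read higher and 2 lower, against 35.5% and 33%. The part of these markers in the Id differences was not tested. Between resveratrol and DMSO the sums overlapped, although Gfap read higher in both resveratrol pairs (1.61 and 1.77). Gfap also read higher in both Sirt1 KO pairs (3.47 and 1.70). It was well above background on 5 arrays, among them all resveratrol and DMSO arrays, but not on both arrays of Sirt1 KO or of WT. Its WT values, -7.66 and -5.73, were near those of Pecam1 (-7.79 and -5.77), which was well above background on no array. The size of its Sirt1 KO differences is therefore uncertain.

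Oligodendrocyte precursor markers, all 6 of them well above background on every array, had a summed level of 169 to 183 in Sirt1 KO spheres, against 172 to 195 in WT spheres. It was 163 to 164 in resveratrol spheres, against 193 to 218 in DMSO spheres, with no overlap. Olig1, the brightest of these probes, made up most of the sum on the linear scale. Its own values overlapped, with 6.75 and 7.07 in resveratrol spheres against 6.86 and 7.41 in DMSO spheres. Of the 6 markers 5 read lower in both resveratrol pairs, as Id3 and Id4 did, against 33% of all genes. The median for resveratrol against DMSO was -0.54 over the markers and 0.01 over all genes. Gpr17 and Sox10 had the signs of Id3 and Id4 in both comparisons. In the Sirt1 KO pairs they gave 2.25 and 1.07 (Gpr17) and 1.41 and 0.58 (Sox10). Their means were -1.47 and -0.85 for resveratrol against DMSO. The list as a whole did not share the Sirt1 KO sign. Cspg4, Olig1 and Olig2 read lower in both Sirt1 KO pairs, Pdgfra was mixed, and the median over the 6 markers was -0.21. None of these markers passed the test. Their part in the Id differences was not tested.

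Counted over the 9 tested genes, Sirt1 KO read higher than WT in both replicate pairs for 4 (Id1, Id3, Id4 and Bmp4), lower for 2 (Bambi and Eng) and mixed for 3. Over all genes 23.5% were higher and 32.6% lower in both pairs. The Sirt1 KO and WT values did not overlap for 3 genes that were higher and 1 that was lower, against 7.6% and 7.38% of all genes. These counts rest on the brighter probe. On the second Id1 probe the groups overlapped, and the second Bmpr1a probe read higher in both pairs (0.29 and 0.20). The median difference was 0.58 over the 9 genes and -0.03 over all genes.

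Resveratrol read higher than DMSO in both pairs for 3 of the 9 (Id1, Bambi and Eng), lower for 5 (Id2, Id3, Id4, Bmp4 and Bmpr1a) and mixed for 1. Over all genes 35.5% were higher and 33% lower in both pairs. The groups did not overlap for Eng, which was higher, and for Id3, Id4 and Bmpr1a, which were lower, against 10.2% and 8.86% of all genes. These counts also rest on the brighter probe. In the pairs the second probe gave -0.09 and 0.12 for Id2, and 0.12 and 0.80 for Bmpr1a. On the second probes of Id4 and Bmpr1a the groups overlapped. The median was -0.11 over the 9 genes and 0.01 over all genes.

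**Figure D4:**
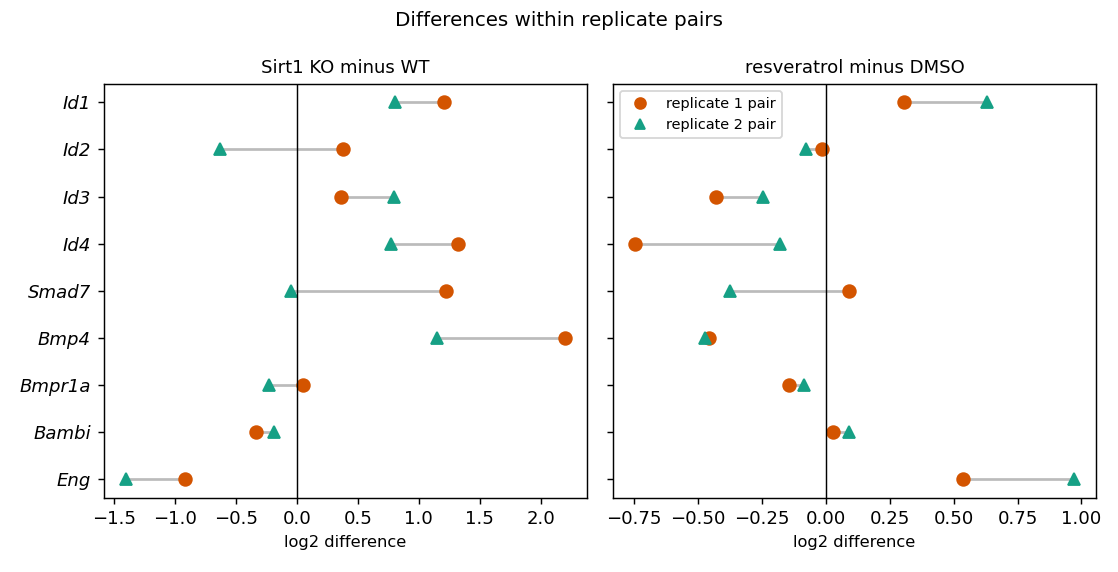
Log2 differences within replicate pairs for the 9 tested genes, Sirt1 KO minus WT on the left and resveratrol minus DMSO on the right. Circles are the replicate 1 pair and triangles the replicate 2 pair, and the line at 0 marks no difference. Id3, Id4 and Bmp4 lie right of 0 on the left panel and left of 0 on the right one. Eng does the reverse, as does Bambi by less.

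The 2 comparisons share no array. Id3, Id4 and Bmp4 were higher in both Sirt1 KO pairs and lower in both resveratrol pairs, as were 6.62% of all genes. Eng and Bambi were lower in both Sirt1 KO pairs and higher in both resveratrol pairs, as were 10.5%. For Bambi the mean differences were small, -0.26 and 0.06 (SE 0.48 each). The difference between the differences was tested directly. It was -1.91 for Eng (SE 0.48, limma, unadjusted p = 0.0056, adjusted p = 1) and 1.51 for Id4 (SE 0.42, unadjusted p = 0.0093, adjusted p = 1). For Id3 it was 0.92 (SE 0.35, limma, unadjusted p = 0.0347, adjusted p = 1), and for Bmp4 2.14 (SE 1.40). Under normexp these were -0.77 for Eng and 0.93 for Id4, and leaving out arrays gave 0.76 (without Sirt1 KO replicate 1) to 3.52 for Bmp4. None passed after adjustment, and limma called 0 of 13331 genes (0%), with 126 (0.945%) at an unadjusted p under 0.05.

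WT and DMSO spheres differ in strain, in solvent, in the sex of replicate 1 and in the slide and scan day of WT replicate 2, which cannot be told apart. Id4 was lower in WT than in DMSO spheres by -1.35 (SE 0.30, limma, unadjusted p = 0.0029, adjusted p = 0.302), with -1.85 and -0.85 between arrays of the same replicate number, and -0.79 under normexp. Id3 was lower by -0.51 (SE 0.25, limma, unadjusted p = 0.0775). The WT arrays also enter the Sirt1 KO comparison and the DMSO arrays the resveratrol comparison, so these values are not separate evidence for either. Of all genes limma called 10 between WT and DMSO (0.075%; 5.6% at an unadjusted p under 0.05), none of them among the 10 genes described here. WT read higher in both pairs for 3 of the 9 tested genes and lower for 2, against 32.6% and 27.8% of all genes. The 2 groups did not overlap for Bmpr1a, which was higher in WT (13.5% of all genes), and for Id3 and Id4, which were lower (12.7%). On the second Bmpr1a probe the groups overlapped, with 0.06 and -0.05 in the pairs. The second Id1 probe read higher in both pairs (0.44 and 0.15).

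The wider pathway was read from lists of genes chosen by function. These lists count Bmp4, Bmpr1a, Eng, Smad7 and Bambi again. None of the 6 tested BMP ligands, 10 BMP and activin receptors, 11 secreted antagonists, 5 SMADs, 8 feedback inhibitors or 10 other targets passed the test in either direction in either comparison. For the counts that follow, 23.5% of all genes were higher and 32.6% lower in both Sirt1 KO pairs. In both resveratrol pairs 35.5% were higher and 33% lower. Of the 10 receptors 4 were higher and 3 lower in both Sirt1 KO pairs, and 2 were higher and 6 lower in both resveratrol pairs. The median difference over the receptors was 0.07 for Sirt1 KO against WT and -0.15 for resveratrol against DMSO, beside -0.03 and 0.01 over all genes. Of the 11 antagonists 1 was higher and 3 were lower in both Sirt1 KO pairs, and 5 were higher and 3 lower in both resveratrol pairs. Of the 8 feedback inhibitors 3 were higher and 3 lower in both Sirt1 KO pairs, and 5 were higher and 2 lower in both resveratrol pairs.

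**Figure D5:**
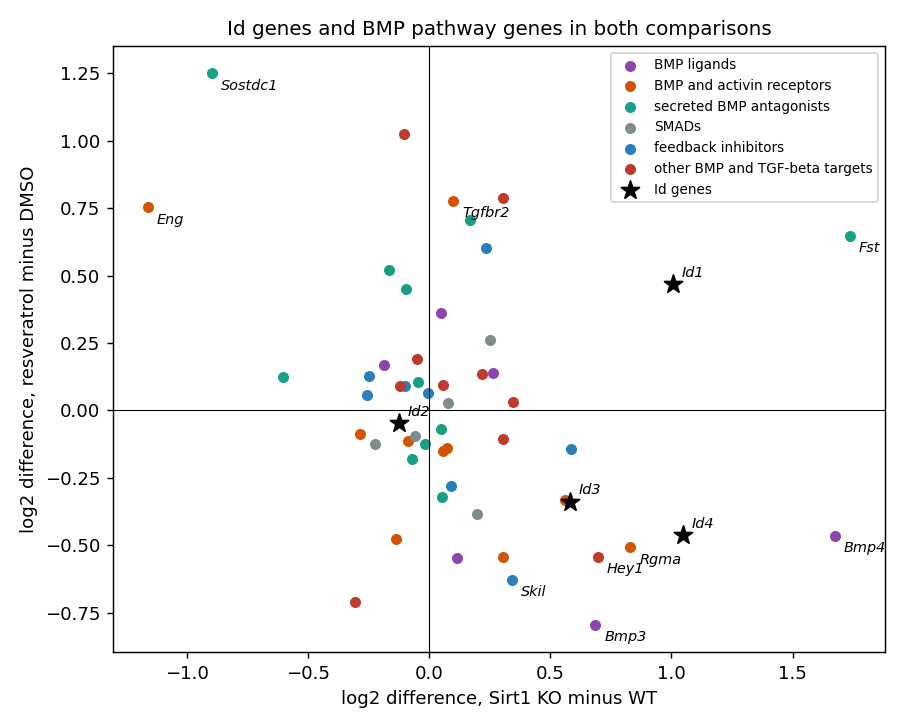
Mean log2 differences of the tested BMP pathway genes, Sirt1 KO minus WT on the x axis and resveratrol minus DMSO on the y axis. Colours give the gene list and black stars the 4 Id genes. Bmp4, Id4 and Rgma lie to the lower right, and Eng and Sostdc1 to the upper left.

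Rgma, a membrane-bound BMP co-receptor, read higher in Sirt1 KO spheres by 1.03 and 0.63 in the pairs (mean 0.83, SE 0.32) and lower with resveratrol by -0.60 and -0.41 (mean -0.51, SE 0.32). The ligand gene Bmp3 followed the same signs, with means of 0.69 and -0.79 (SE 0.43 each). Sostdc1, a secreted BMP antagonist, took the signs of Eng, with means of -0.89 for Sirt1 KO against WT and 1.25 for resveratrol against DMSO (SE 0.59 each). Fst, which encodes the activin and BMP antagonist follistatin, differed by 1.74 between Sirt1 KO and WT (SE 0.85), but by -0.13 and 3.60 in the pairs, so that 1 pair decided it. The TGF-beta receptor gene Tgfbr2 read higher with resveratrol by 0.51 and 1.04, and Skil, a SMAD corepressor, lower by -0.57 and -0.68. The activin subunit gene Inhbb read lower with resveratrol by -0.46 and -0.64, while the follistatin-related Fstl1 (0.41 and 1.01) and Tob1, an antiproliferative SMAD inhibitor (0.37 and 0.84), read higher.

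Among the SMADs that carry the signal, the largest mean differences were 0.25 for Smad3 (SE 0.46) and -0.22 for Smad2 (SE 0.25) in Sirt1 KO against WT. With resveratrol they were -0.39 for Smad5 (SE 0.29) and 0.26 for Smad3 (SE 0.46), all within 2 SE of 0. Of the other targets, Hey1, a basic helix-loop-helix repressor shared with the Notch pathway, read higher in both Sirt1 KO pairs (mean 0.70, SE 0.28) and lower in both resveratrol pairs (mean -0.54, SE 0.28). Tgfbi, a matrix protein gene, had a mean of 0.35 in Sirt1 KO against WT (SE 0.53). With resveratrol the means were 1.02 for Ccn2, a matrix-associated TGF-beta target (SE 0.93), and 0.79 for the homeobox gene Msx2 (SE 0.80), which was well above background on 4 arrays.

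The partners of Id proteins differed little. The 3 E protein genes Tcf3, Tcf4 and Tcf12 had means between -0.14 and -0.05 for Sirt1 KO against WT and between -0.13 and -0.03 for resveratrol against DMSO. Of 8 neural basic helix-loop-helix genes, 4 were higher and 3 lower in both Sirt1 KO pairs, against 23.5% and 32.6% of all genes. In both resveratrol pairs 1 was higher and 5 were lower, against 35.5% and 33% of all genes. Hes5, a Notch target that represses proneural genes, had the same signs as Id3 and Id4 at a larger size, 1.66 (SE 0.35) and -1.81 (SE 0.35), and did not pass after adjustment either.

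The genes most alike to each Id gene over the 8 arrays were named by Pearson correlation among 13287 other genes. For Id3 they were Mfng, a glycosyltransferase of Notch receptors (r = 0.95), the corepressor gene Tle4 (0.92) and Cnp, known from myelin (0.90). For Id4 they were Os9 (0.97), Rnf34 and Polr3c (0.93 each). For Id1 they were Armc3 (0.98), Vwa1 (0.97) and Fnta (0.96), and for Id2 the nuclear receptor gene Nr2f1 (0.98), Qrich1 (0.97) and Eed (0.95). The 8 points share 4 groups and 3 slides, and no Id gene was among the 3 most alike to another.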

How the data were processed

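Each of the 8 arrays held 45018 spots, 1639 of them controls. The deposited scanner files give a spot intensity that Agilent Feature Extraction had background-subtracted and spatially detrended, with no normalization between arrays, per the file headers (version 10.7.3.1, build mm9; 10.7 per the submitters' processing notes). The authors' deposited value table holds log2 values that they had quantile normalized, and was used as an alternative. It is thus close in method to the quantile normalization run here. Its software is not given in the sources used here.

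The log2 processed intensity was centred on each array's 75th percentile, without outlier-flagged spots, and spots of a probe were averaged (41174 probes). A probe was kept if well above background, in over 50% of its spots, on both arrays of 1 or more groups, which left 26360 probes. Accessions were matched to symbols through RefSeq (GRCm38.p6), and 14256 probes had no match. The kept probe of highest mean stood for its gene, and 5005 genes had several. No gene coordinates are given, since the builds differ; upstream windows carry RefSeq's own.

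The comparisons used limma 3.58.1 (R 4.3.3): 4 group means over 8 arrays, eBayes with an intensity trend, two-sided tests, Benjamini-Hochberg adjustment over 13331 genes and a threshold of 0.05. The fit was tested on simulated data with planted changes larger than any mean difference of the genes described here. That test therefore does not show whether differences of their size would be found. An exact permutation test of 2 against 2 cannot reach that threshold.

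The 10 genes and all lists were chosen with earlier results of these data known. By rule the text names all 10 genes, the 3 genes most alike to each Id gene and, per pathway list, genes with the largest differences; the part of that rule on the brightest genes was not applied, since levels of different probes cannot be compared. Hes5, the E proteins and the markers named come from the same lists.

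Per the file headers there were 3 slides, scanned on 2 days. Slide 1 carried WT 1, resveratrol 1 and DMSO 1, slide 2 Sirt1 KO 1, resveratrol 2 and DMSO 2, and slide 3 Sirt1 KO 2 and WT 2. Alternatives were quantile normalization, median centring, the authors' table, other probe filters, the mean of probes, no intensity trend, replicate and slide blocks, own groups alone, and each array left out. Normexp with offset 50 was planned on mean signals; the files used here have no such column, so it was run on median signals, in 2 forms chosen after seeing the data.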

Additional observations from a re-analysis of the deposited data

How the results depend on the processing

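In all, 699 differences of the 9 tested genes were recomputed: 645 kept their sign and side of the threshold, 51 changed sign, 50 of them from within 1 SE of 0, and 3 newly passed. With replicate number as a block the counts of genes were 57 for Sirt1 KO against WT (45 higher, 12 lower), 73 for resveratrol against DMSO, 49 for the difference between differences and 1570 for WT against DMSO. It called Id1 for Sirt1 KO against WT (1.01, limma, adjusted p = 0.0446), and Id3 (-0.51, 0.0396) and Id4 (-1.35, 0.0056) for WT against DMSO. It changed no other call of the 9 genes. Arrays of the same number deviated together (correlation 0.74, 0.83 and 0.60 across genes). In the genotype groups the number is also sex and scan day, with both replicate 2 arrays on slide 3, and these cannot be told apart. In the treatment groups the number is slide. The labels do not say that it pairs samples. The WT against DMSO count of 10 was 4 with probes well above background on all arrays, 5 with its own groups alone, 145 with slide as a block, and 18 and 19 with the 2 forms of normexp. Leaving out arrays gave 0 to 5 genes for Sirt1 KO against WT (5 without Sirt1 KO replicate 1, 3 without Sirt1 KO replicate 2), 0 to 3 for the difference between differences, 0 to 4 for WT against DMSO and 0 to 0 for resveratrol against DMSO.

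Sign changes outside the leave-one-out fits were in differences within 1 SE of 0. The mean of probes turned Bmpr1a to 0.079 for Sirt1 KO against WT, 0.17 for resveratrol against DMSO and -0.092 for their difference, which was -0.022 under median centring and -0.011 with slide as a block. The Id2 difference between differences became 0.035 under quantile normalization, 0.037 in the authors' table, and 0.11 under both forms of normexp. Slide as a block gave -0.10 for Id1 between the differences, and 0.31 for Smad7 and 0.046 for Eng between WT and DMSO. Id1 for WT against DMSO was -0.084 in the authors' table and -0.0030 under both forms of normexp.

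Leaving out single arrays turned the sign of the following differences, given as their range. For Sirt1 KO against WT they were Id2 (-0.40 to 0.15), Smad7 (-0.18 to 1.36), Bmpr1a (-0.28 to 0.10) and Bambi (-0.70 to 0.19). For resveratrol against DMSO they were Id1 (-0.37 to 1.30), Id2 (-0.38 to 0.29), Smad7 (-0.29 to 0.0064) and Bambi (-0.36 to 0.48). For the difference between differences they were Id1 (-0.30 to 1.37), Id2 (-0.41 to 0.25), Smad7 (-0.042 to 1.50), Bmpr1a (-0.16 to 0.22) and Bambi (-0.76 to 0.13). For WT against DMSO they were Id1 (-0.66 to 0.68), Id2 (-0.12 to 0.54), Bmp4 (-0.58 to 1.13), Bambi (-0.0046 to 0.78) and Eng (-0.17 to 0.065).

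Having 2 arrays in a group limits the precision of every value. Smad6, Smad7, Bmp4 and Eng were not well above background on at least 1 array, and normexp shrank the last 2. The causes of these shifts were not tested.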
